A study of Mus musculus with 12 samples.

Results

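The gamma-crystallins are 8 mouse genes, Cryga, Crygb, Crygc, Crygd, Cryge, Crygf, Crygn and Crygs, picked by gene symbol out of the 35976 genes that the count table lists. Each of the 8 had reads in each of the 12 libraries, and 24484 genes had a read in at least 1 library. The family was put forward with its levels in these libraries already known. Its levels, fold changes and counts are therefore a description, and no p-value is given for a single member.

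Retinas were compared in 4 groups of 3 libraries, made from mouse pups labelled C57BL/6 (WT) or Caspase1 knockout (Casp1 KO), kept in normoxia or exposed to oxygen-induced retinopathy (OIR). In the WT groups the pups were at postnatal day 15. The WT pups of the OIR group had been in 75% oxygen from postnatal day 7 to 12 and then in room air, where the retina that has lost vessels becomes hypoxic. For the knockout groups the labels give 3 days after OIR for the OIR libraries, and neither age nor oxygen level is stated for either group. The sources also do not say how many animals stand behind a library or how the knockout was made. The p-values therefore concern these libraries only. In the edgeR fits they rest on a spread estimated over many genes, so they do not measure the replicate spread of a single gene. The comparisons ask what OIR changed in each genotype and what the Casp1 label changed in each condition.

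Crystallins are the abundant soluble proteins of the lens, where they are packed tightly enough to keep the tissue transparent and refractive. Beta- and gamma-crystallins share a fold built of Greek key motifs, and alpha-crystallins are small heat shock proteins that hold damaged proteins in solution. Gamma-crystallins act mostly as single chains in fibre cells of the lens nucleus, whereas gamma S, the product of Crygs, is the gamma-crystallin of the lens cortex and appears later. Crygn combines features of beta- and gamma-crystallins. Crystallin transcripts are also found at low levels in retina, and mutations of several gamma-crystallin genes cause cataract.

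In the GENCODE vM21 annotation of GRCm38 (mm10), all 8 genes are protein coding. Of these, 5 lie in a row on the minus strand of chromosome 1, namely Cryge (65048554 to 65051149), Crygd (65061872 to 65063452), Crygc (65071525 to 65073689), Crygb (65080219 to 65082288) and Cryga (65100389 to 65103373). Crygf lies apart from them on the plus strand of the same chromosome, from 65926520 to 65928307. Crygs is on the minus strand of chromosome 16 (22805203 to 22811577), and Crygn is on the minus strand of chromosome 5 (24751003 to 24758008). Each gene has 3 exons, except Crygn, which has 4.

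The start regions of the genes are shown because Cryga to Crygf moved together across the libraries, while Crygn and Crygs correlated with them less closely. Crygn had few reads, and the part of counting error in its lower correlation was not tested. Each run below holds the 250 bases before and the 50 bases after the RefSeq start, on the strand of the gene, in GRCm38.p6. Capitals mark TATATA or TATAAA (forms of the TATA box), TGCTGA (the half-site that large Maf factors bind, printed as TCAGCA where it lies on the other strand), and CTTTTGTG. The marked motifs do not overlap one another, apart from copies of TATATA that run together in Crygb. The first run is from chr1:65082241-65082540, the second from chr1:65051114-65051413, the third from chr1:65926272-65926571, the fourth from chr5:24757799-24758098 and the fifth from chr16:22811361-22811660.
Crygb: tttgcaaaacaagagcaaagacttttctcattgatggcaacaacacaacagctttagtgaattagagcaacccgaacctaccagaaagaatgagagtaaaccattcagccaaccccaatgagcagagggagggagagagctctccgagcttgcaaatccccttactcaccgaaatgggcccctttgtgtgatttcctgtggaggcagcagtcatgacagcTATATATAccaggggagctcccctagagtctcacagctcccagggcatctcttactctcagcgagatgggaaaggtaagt
Cryge: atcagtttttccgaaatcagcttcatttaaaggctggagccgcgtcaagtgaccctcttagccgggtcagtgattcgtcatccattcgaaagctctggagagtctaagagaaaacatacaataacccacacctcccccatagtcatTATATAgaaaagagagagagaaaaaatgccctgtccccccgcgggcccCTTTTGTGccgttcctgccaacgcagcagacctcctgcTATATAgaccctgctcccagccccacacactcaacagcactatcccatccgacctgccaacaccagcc
Crygf: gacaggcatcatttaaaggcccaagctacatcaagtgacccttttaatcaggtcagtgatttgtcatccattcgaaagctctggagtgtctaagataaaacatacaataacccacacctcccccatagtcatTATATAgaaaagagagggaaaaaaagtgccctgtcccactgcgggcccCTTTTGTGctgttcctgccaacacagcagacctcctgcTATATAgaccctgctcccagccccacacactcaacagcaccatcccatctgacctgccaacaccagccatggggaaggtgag
Crygn: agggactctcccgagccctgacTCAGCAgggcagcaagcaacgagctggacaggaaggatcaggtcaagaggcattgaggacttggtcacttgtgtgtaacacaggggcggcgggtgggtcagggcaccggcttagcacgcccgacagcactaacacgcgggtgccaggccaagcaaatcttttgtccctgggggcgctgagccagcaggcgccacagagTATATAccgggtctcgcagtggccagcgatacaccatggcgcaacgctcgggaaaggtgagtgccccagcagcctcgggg
Crygs: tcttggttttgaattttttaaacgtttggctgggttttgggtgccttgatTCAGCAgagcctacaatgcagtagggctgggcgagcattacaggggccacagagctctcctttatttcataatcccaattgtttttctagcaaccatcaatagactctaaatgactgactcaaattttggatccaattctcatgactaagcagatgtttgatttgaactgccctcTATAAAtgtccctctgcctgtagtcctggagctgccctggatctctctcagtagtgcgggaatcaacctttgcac

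TATATA was present in 7 of the 8 start regions, all but that of Crygs, and in 5.67% of all 32851 start regions in the table. In Crygs the letters TATAAA stood 25 bases before the start, a form present in 13.6% of all start regions. CTTTTGTG was present in 5 of 8 members (Cryga, Crygc, Crygd, Cryge and Crygf) and in 1.37% of all start regions, on either strand. TGCTGA was present in Cryga and Crygc on the gene's strand, in Crygn and Crygs on the other strand, and in 19.5% of all start regions. The motifs were chosen after the sequences had been seen, and a match is a description of the letters only. The start regions of Cryge and Crygf were identical at 87.0% of aligned bases, the highest value among the 15 pairs of Cryga to Crygf, whose median was 66.3%. Pairs with Crygn or Crygs ran from 53.7% to 59.3%.

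Because the family is made of near copies, a read can match more than 1 member. In QuantSeq 3' libraries a read starts near the 3' end of the transcript, and reads here were 75 bases long. In the last 300 bases of the annotated transcripts, 60 of the 226 stretches of 75 bases (26.5%) in Cryge were also found in Crygf, and the reverse count was the same. For the other 6 members, 0 of 226 stretches in that window were found in another annotated gene. Over the whole transcript, Crygb and Crygc shared 26.3% and 20.7% of all their stretches, and Crygd, Cryge and Crygf shared 23.7%, 42.01% and 21.3% of theirs, with each other. In Cryga, 50.1% of the stretches also belong to Gm28845, an annotated gene on the same strand that overlaps it (65100619 to 65119558). The reads of Gm28845 are not described here. A stretch that lies only partly in Gm28845 is not counted as shared, so the reads of Cryga are also uncertain there. Crygn and Crygs shared 0 stretches with any gene. How reads with several matches were handled is not given in the sources used here, so the split between Cryge and Crygf is the least certain, and the sum of Cryga to Crygf is given beside the single genes.

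**Figure D1:**
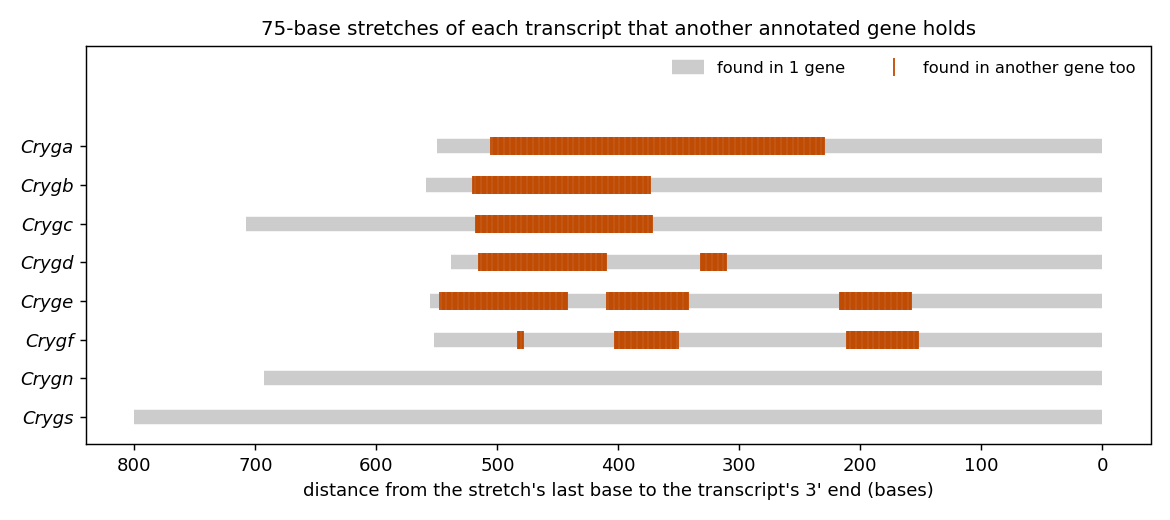
Stretches of 75 bases along the annotated transcript of each gamma-crystallin, by the distance in bases of the stretch's last base from the 3' end (x axis). Grey bars mark the transcript and orange ticks the stretches that another annotated gene also holds. Near the 3' end, where the reads start, ticks appear in Cryge and Crygf, while in Cryga, Crygb, Crygc and Crygd they lie further away and Crygn and Crygs have none.

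Library totals ran from 3391203 to 22815830 counts, so that 3 counts, the limit that a count of 0 allows, stood for 0.131 to 0.885 CPM (reads of a gene scaled to library size), for counting error only. As a check of the labelled tissue, the 6 rod markers summed to between 33834 and 40982 CPM in every library. The library labels did not match the reads of Casp1, the gene named in them. Casp1 had 0 to 3 reads in the 6 libraries labelled WT and 10 to 45 in the 6 labelled Casp1 KO. Where the deleted part of the gene lies is not given, and 3' reads outside it would check nothing. The direction goes against the labels, so the groups are called labelled WT and labelled Casp1 KO, and every direction drawn between genotypes rests on those labels.

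Gamma-crystallin reads made up 0.0311% to 0.127% of a library. Levels are in CPM on the TMM scale, and since 3' reads do not grow with transcript length, they can be set beside each other between genes. Crygb was the most abundant member and Crygd the next in all 12 libraries, and Crygb ranked between place 318 and place 1798 among all genes of a library. Crygc took place 3 in 11 of 12 libraries. Cryga, Cryge and Crygs exchanged places between 3 and 6. As neighbours they overlapped in the first 3 groups, and in Casp1 KO OIR Cryge (123 to 131 CPM) stood above Cryga (90.1 to 114) and Crygs (78.2 to 98.3). Crygf was always in place 7 and Crygn always last. As a share of the family's reads, Crygb took 28.1% to 37.7%, Crygd 19.1% to 23.7% and Crygf 2.81% to 5.85%.

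The summed level of the 8 genes was 482, 567 and 496 CPM in the 3 libraries labelled WT normoxia and 760.1, 622 and 319 CPM in WT OIR. It was 672, 631 and 684 CPM in Casp1 KO normoxia and 1238, 1274 and 1134 CPM in Casp1 KO OIR. The 3 Casp1 KO OIR libraries stood above all the other 9. WT OIR was the group with the widest spread, and its replicate 3 was the lowest of the 12 libraries while its replicate 1 was the highest outside Casp1 KO OIR. Each comparison of the gamma-crystallins that uses WT OIR is therefore also given without that replicate 3. In bulk tissue, fewer cells of a type and less RNA per cell cannot be told apart, and the same holds for more.

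**Figure D2:**
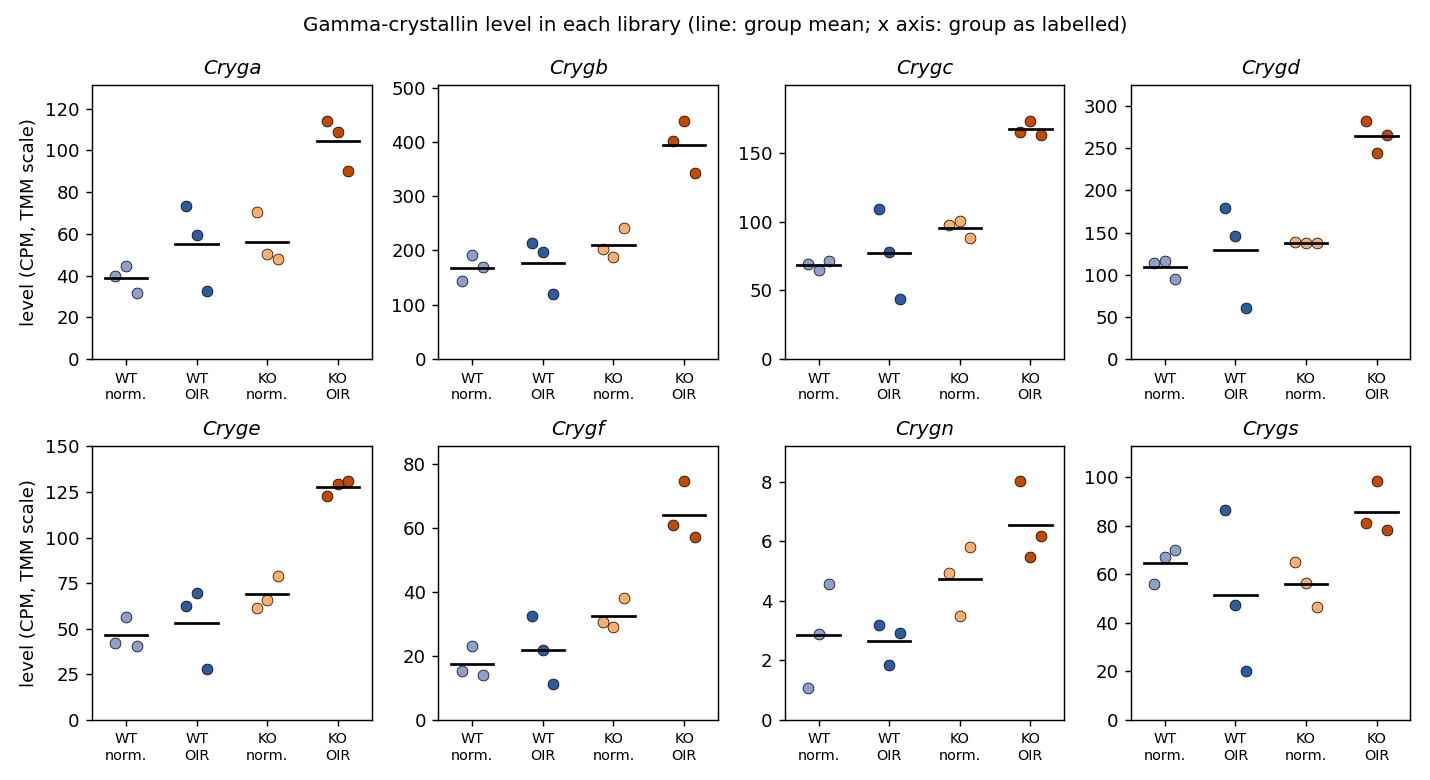
Level of each gamma-crystallin in every library (y axis, CPM on the TMM scale, starting at 0) by labelled group (x axis). Points are libraries and lines are group means. In every panel except Crygn and Crygs the Casp1 KO OIR points lie clear of the other 9 libraries. By the ratio of the highest to the lowest library, WT OIR is the most spread group for all members but Crygn.

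Crygb, the leading member, had 144, 192 and 169 CPM in WT normoxia, 214, 198 and 120.5 in WT OIR, 203, 189 and 241 in Casp1 KO normoxia, and 402, 439 and 343 in Casp1 KO OIR. The Casp1 KO OIR libraries did not overlap any other group, and the other 3 groups overlapped one another. Crygd, which encodes gamma D, a major protein of the lens nucleus, had 114, 117 and 95.0 CPM in WT normoxia and 179, 146 and 60.9 in WT OIR. It had 139, 137 and 137 CPM in Casp1 KO normoxia and 283, 244 and 266 in Casp1 KO OIR. For Crygd the normoxic groups were tight and did not overlap, with the libraries labelled Casp1 KO higher.

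Crygc had 68.9, 64.4 and 71.3 CPM in WT normoxia, 109, 78.1 and 43.4 in WT OIR, 97.5, 100.2 and 88.4 in Casp1 KO normoxia, and 165, 173 and 163 in Casp1 KO OIR. Cryga had 40.0, 44.6 and 31.7 CPM in WT normoxia, 73.5, 59.7 and 32.7 in WT OIR, 70.4, 50.5 and 48.1 in Casp1 KO normoxia, and 114, 109 and 90.1 in Casp1 KO OIR. Both genes showed the same arrangement, in which both groups labelled Casp1 KO lay above WT normoxia and Casp1 KO OIR lay above everything else.

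Cryge, at the far end of the chromosome 1 cluster, had 42.3, 56.4 and 40.2 CPM in WT normoxia, 62.4, 69.6 and 27.6 in WT OIR, 61.4, 65.9 and 79.0 in Casp1 KO normoxia, and 123, 129.6 and 131 in Casp1 KO OIR. Crygf, its near copy, had 15.3, 23.01 and 13.9 CPM in WT normoxia, 32.6, 21.9 and 11.3 in WT OIR, 30.4, 29.0 and 38.2 in Casp1 KO normoxia, and 60.9, 74.5 and 56.97 in Casp1 KO OIR. The reads of Cryge were 1.74 to 3.18 times those of Crygf across the libraries, and the 2 genes had the same order of groups.

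Crygs and Crygn followed these 6 less closely. Crygs had 55.9, 67.3 and 70.2 CPM in WT normoxia, 86.4, 47.5 and 20.2 in WT OIR, 65.3, 56.4 and 46.4 in Casp1 KO normoxia, and 81.2, 98.3 and 78.2 in Casp1 KO OIR. Its Casp1 KO OIR libraries overlapped WT OIR through replicate 1 of that group, and its normoxic groups overlapped. Crygn had 6, 65 and 21 reads in WT normoxia, 13, 10 and 16 in WT OIR, 27, 12 and 24 in Casp1 KO normoxia, and 36, 25 and 30 in Casp1 KO OIR, or 1.07 to 8.004 CPM. At this depth the level of Crygn carried a large counting error in most libraries.

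In WT, OIR against normoxia, 0 of the 8 members passed an adjusted p of 0.05 in edgeR's quasi-likelihood test over all genes, where 1.58% of all tested genes were called higher. At an unadjusted p under 0.05 the count was 2 (Cryga and Crygs), and DESeq2 called 0. The log2 fold changes ran from -0.35 for Crygs (SE 0.17) to 0.48 for Cryga (SE 0.19), with a median of 0.17 beside 0.04 over all genes tested. For Crygb the fold change was 0.06 (SE 0.14), with a 95% interval from -0.21 to 0.32 on the log2 scale. Between the highest and lowest WT OIR library, Crygs differed 4.29-fold and Crygb 1.77-fold. The standard errors and the interval use a spread shared among genes. For these 2 genes they are narrower than the libraries alone imply, and the fits with WT OIR below share this limit. No member had WT OIR libraries all above or all below normoxia, where 8.53% of all genes had them all above. Without WT OIR replicate 3, Cryga and Crygd passed as higher, at log2 fold changes of 0.75 and 0.57, and the summed level of the family was 1.34 times that of normoxia instead of 1.10 times. Over all genes, 1130 of 22400 were then called in either direction, in place of 886 of 22853. Without WT OIR replicate 1, Crygs passed as lower, at -0.95, where 784 of 22313 genes were called in either direction. The 5 red blood cell genes also stood apart in WT OIR replicate 3, at 90.9 CPM beside 277 and 397 CPM in the other 2 libraries, and their part in the result was not tested.

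Between Casp1 KO OIR and Casp1 KO normoxia, 7 of the 8 members were called higher, all but Crygn, as were 2.61% of all genes tested. The 7 called members also had OIR libraries all above the normoxic ones, as had 8.56% of all genes. Crygf had the largest log2 fold change of the members, 0.99 (SE 0.17), followed by Crygd at 0.95 (SE 0.10), Crygb at 0.92 (SE 0.09), Cryge at 0.91 (SE 0.12), Cryga at 0.89 (SE 0.13) and Crygc at 0.82 (SE 0.11). Differences between members were not tested. Crygs rose by 0.63 (SE 0.14), and for Crygn the fitted value was 0.47 (SE 0.47) with an interval from -0.46 to 1.40. The median over the 8 genes was 0.90, beside a median of -0.0020 over all genes tested. The summed level was 1.83 times that of normoxia, and the same 7 members were called whichever of the 6 libraries was left out.

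**Figure D3:**
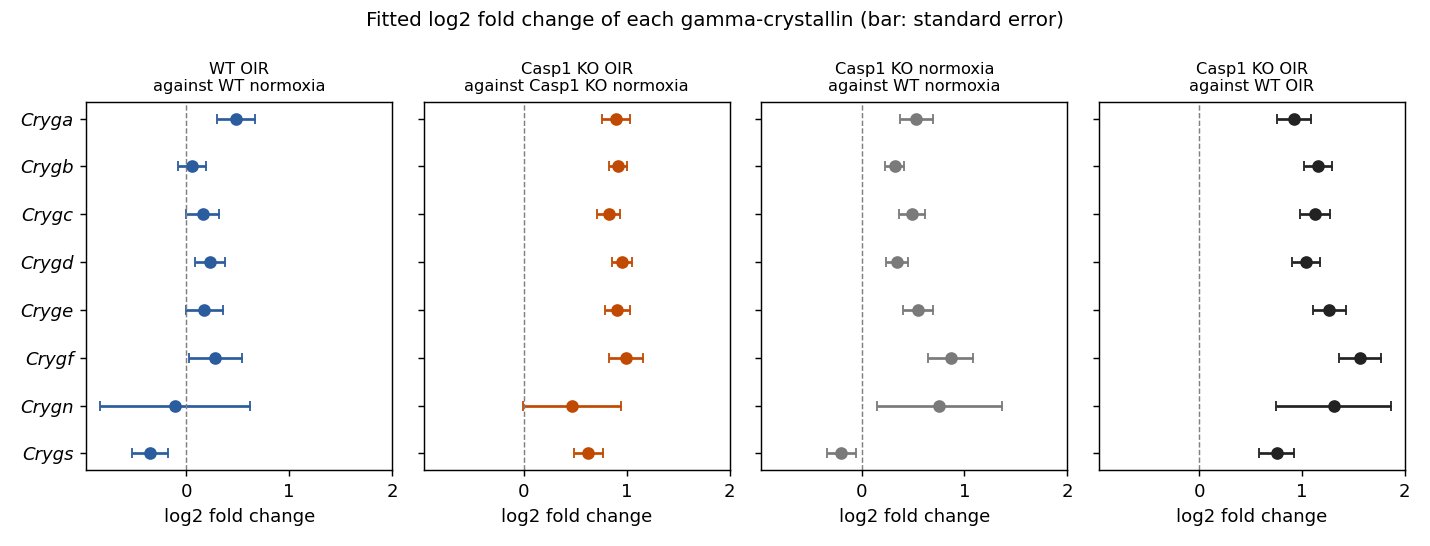
Fitted log2 fold change of each gamma-crystallin (x axis) in the 4 comparisons of 2 labelled groups. Points are the edgeR estimates and bars are standard errors, which use a spread shared among genes. In the WT comparison the points lie around 0, from -0.35 to 0.48, while between the Casp1 KO groups they lie from 0.47 to 0.99.

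In normoxia, 3 of the 8 members (Crygc, Cryge and Crygf) were called higher in the libraries labelled Casp1 KO than in those labelled WT, where 0.476% of all genes were called higher. Crygf had a log2 fold change of 0.87 (SE 0.22), Cryge 0.55 (SE 0.15) and Crygc 0.49 (SE 0.13). Cryga, Crygb and Crygd had fitted values of 0.53, 0.32 and 0.34 and were not called, although all 3 had an unadjusted p under 0.05. Crygs pointed the other way at -0.20 (SE 0.14). All Casp1 KO libraries lay above all WT libraries for 5 members (Cryga, Crygc, Crygd, Cryge and Crygf), beside 5.91% of all genes. The number called was sensitive to single libraries, and with all 12 libraries in 1 fit only Crygf was called. Without WT normoxia replicate 1, without WT normoxia replicate 3 or without Casp1 KO normoxia replicate 3, Crygc alone was called, and without WT normoxia replicate 2 the called genes were Cryga, Crygb, Cryge and Crygf. With the reads of Cryga to Crygf added into 1 feature, its log2 fold change was 0.43 (SE 0.07), so the direction was the same with the near copies added together.

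In OIR, 7 of the 8 members, all but Crygn, were called higher in the libraries labelled Casp1 KO than in those labelled WT, where 0.263% of all genes were called higher. Cryga to Crygf and Crygn had no overlap between the groups, beside 5.41% of all genes. Crygf differed most, with a log2 fold change of 1.57 (SE 0.20), then Cryge with 1.27 (SE 0.16), Crygb with 1.16 (SE 0.13), Crygc with 1.13 (SE 0.15), Crygd with 1.04 (SE 0.14), Cryga with 0.93 (SE 0.16) and Crygs with 0.76 (SE 0.17). The value for Crygn was 1.31 (SE 0.56). The number of calls was 5 by DESeq2, and 3 (Crygb, Cryge and Crygf) in edgeR when genes with few reads were removed first by filterByExpr. By the size of its p, Crygb stood first among the 22774 genes tested and Cryge second (a description, since the family was put forward with these values known). Without WT OIR replicate 3 the log2 fold changes of Crygb, Crygd and Crygs were 0.96, 0.72 and 0.38, Crygs was no longer called, and the ratio of summed levels was 1.76 instead of 2.14. Over all genes, 815 of 22320 were called in either direction without that library, in place of 131 of 22774.

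The effect of OIR differed between the genotypes as labelled for Crygb, Crygd and Crygs, the 3 of 8 members called in the interaction, where 0.604% of all genes were called higher. The difference on the log2 scale was 0.84 (SE 0.16) for Crygb, 0.71 (SE 0.17) for Crygd and 0.96 (SE 0.22) for Crygs. In Crygs the effects were -0.35 in WT, which was not called, and 0.63 in Casp1 KO. For Cryga the difference was 0.40 (SE 0.22). Only Crygb was called by DESeq2 or after filterByExpr. Without WT OIR replicate 3 the WT effect of Crygs was 0.03 and its difference 0.57, and only Crygb of the members was called, at 0.62, and without WT OIR replicate 1 the count was 6. Over all genes, 597 of 24243 were called in either direction without replicate 3 and 267 of 24213 without replicate 1, in place of 277 of 24484. The comparisons share groups, so they are not independent of one another.

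The alpha- and beta-crystallins (Cryaa, Cryab, Cryba1, Cryba2, Cryba4, Crybb1, Crybb2 and Crybb3) were the list most like the family. All 8 of them were called higher in Casp1 KO OIR than in Casp1 KO normoxia, where 2.61% of all genes were. Their summed level went up 1.90-fold. Cryba1, a beta-crystallin of the lens, went from 106, 99.3 and 114 CPM to 230.3, 237 and 199 CPM, a log2 fold change of 1.07 (SE 0.10, adjusted p = 2.42e-22 by edgeR's quasi-likelihood test). This list and those below were chosen with earlier results of these data known, so p-values of their genes are a description. Between the WT groups 0 of the 8 were called by edgeR's quasi-likelihood test (0 at an unadjusted p under 0.05, and 0 by DESeq2), and the summed level in OIR was 0.912 times that of normoxia. Between the normoxic groups, where 3 gamma-crystallins were called, 0 of these 8 were called by edgeR (0 at an unadjusted p under 0.05, and 0 by DESeq2), and their summed level was 0.899 times as high in the libraries labelled Casp1 KO, all 3 of which lay below all 3 labelled WT. In Casp1 KO OIR against WT OIR, 7 of these 8 were called higher (6 by DESeq2), beside 0.263% of all genes. All 8 had groups that did not overlap, as had 5.41% of all genes in that direction. Their summed level was 1.87 times as high, beside 2.14 times for the gamma-crystallins. Without WT OIR replicate 3 these ratios were 1.61 and 1.76. Without that library, WT OIR stood at 1.06 times WT normoxia for the alpha- and beta-crystallins, in place of 0.912, and at 1.34 times for the gamma-crystallins.

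Within each library, the reads of Cryga to Crygf were therefore set against those of the 8 alpha- and beta-crystallins. This ratio needs no scaling between libraries. It was 0.746, 0.917 and 0.702 in WT normoxia and 1.04, 1.01 and 0.838 in WT OIR, against 1.17, 1.13 and 1.22 in Casp1 KO normoxia and 1.16, 1.17 and 1.13 in Casp1 KO OIR. All 6 libraries labelled Casp1 KO lay above all 6 labelled WT. Inside the Casp1 KO label, normoxia and OIR overlapped, so both kinds of crystallin went up by about the same factor there. The ratio of Crygs to Cryga to Crygf was highest in WT normoxia, at 0.132, 0.135 and 0.167, and lowest in WT OIR replicate 3 at 0.0681. In Casp1 KO OIR it was 0.0707, 0.0841 and 0.0745, below all 3 WT normoxia libraries.

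**Figure D4:**
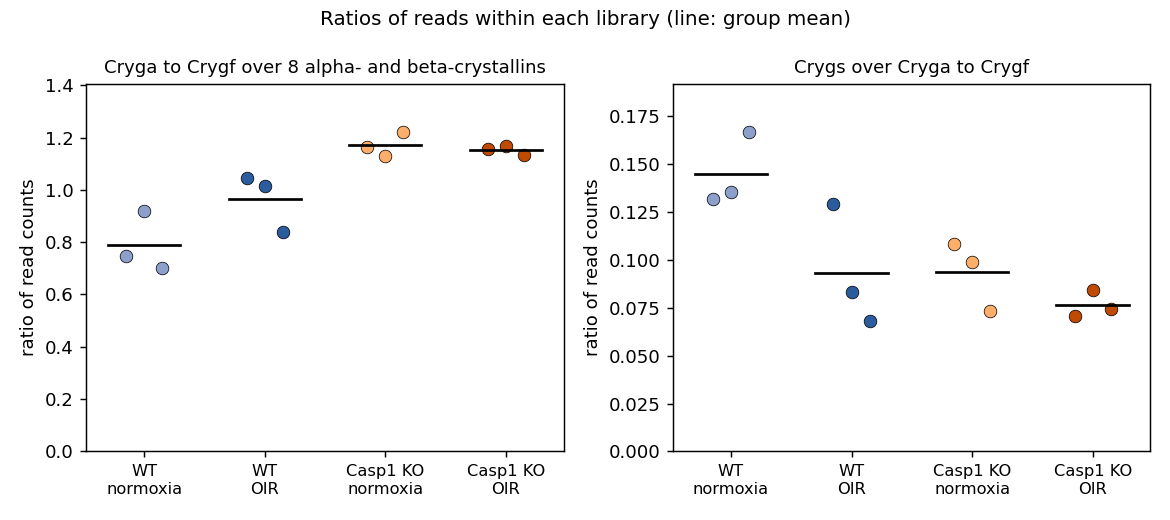
Ratios of read counts within each library (y axes, starting at 0) by labelled group, with points for libraries and lines for group means. The left panel sets Cryga to Crygf against the 8 alpha- and beta-crystallins, and all 6 libraries labelled Casp1 KO (1.13 to 1.22) lie above all 6 labelled WT (0.702 to 1.04). The right panel sets Crygs against Cryga to Crygf, and the ratio is highest in WT normoxia.

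The lens fibre genes other than crystallins are a list of 13 with few reads in most members. Of the 13, Bfsp2 and Lenep were called higher between the Casp1 KO groups, Lenep not by DESeq2, and no other gene of the list was called there. Over all genes tested, 2.61% were called higher in that comparison. Bfsp2 encodes phakinin, an intermediate filament protein of lens fibre cells, and went from 5.65, 7.26 and 5.07 CPM to 15.8, 20.8 and 15.01 CPM, a log2 fold change of 1.54 (SE 0.34, edgeR adjusted p = 0.000394). Bfsp2 was also called in Casp1 KO OIR against WT OIR, as the only gene of the list, with 1.62 (SE 0.35, edgeR adjusted p = 0.00234), but not by DESeq2. There 0.263% of all genes were called higher. Mip, the water channel that is the most abundant membrane protein of lens fibres, was at 0 in 10 of 12 libraries and had 3 reads in each of the other 2. The list summed to 124 to 176 CPM in WT normoxia, 138 to 221 in WT OIR, 161 to 187 in Casp1 KO normoxia and 191 to 299 in Casp1 KO OIR. Most of that sum was Tdrd7, which was not called and whose mean was 143 CPM (SD 12.5) in Casp1 KO normoxia and 170.5 CPM (SD 59.5) in Casp1 KO OIR (n = 3 each). Without Tdrd7, a choice made after seeing the values, the other 12 genes summed to 23.2 to 35.4 CPM in Casp1 KO normoxia and 58.7 to 74.7 CPM in Casp1 KO OIR, or 2.12 times as much, while the ratio was 0.968 in WT. Between the OIR groups the ratio of these 12 was 2.08, and between the normoxic groups it was 0.951. The median log2 fold change of the list between the Casp1 KO groups was 1.03, beside 0.90 for the gamma-crystallins. Genes of lens fibres thus moved with the gamma-crystallins in the comparisons with Casp1 KO OIR. The part of lens tissue in the crystallin levels was not tested.

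Among the 8 lens transcription factors, Foxe3 was at 0 in all 12 libraries. Prox1, which is needed for fibre cell elongation in the lens and is also made by retinal neurons and Müller glia, rose between the Casp1 KO groups by 0.50 (SE 0.10, edgeR adjusted p = 1.73e-05), as did Sox2 by 0.56 (SE 0.16, edgeR adjusted p = 0.0133). By DESeq2, 1 gene of this list was called there in place of 2, and edgeR called 2.61% of all genes higher. Prox1 and Sox2 were lower in Casp1 KO normoxia than in WT normoxia, at -0.71 (SE 0.09) and -0.54 (SE 0.15). Their direction between the normoxic groups was thus opposite to that of Crygc, Cryge and Crygf.

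Pigment cell genes moved with the gamma-crystallins between the Casp1 KO groups. In that comparison 2.61% of all genes tested were called higher. The 5 retinal pigment epithelium markers (Rpe65, Best1, Ttr, Lrat and Rgr) summed to 685 to 719 CPM in Casp1 KO normoxia and 1035 to 1104 CPM in Casp1 KO OIR, beside 630.3 to 682 in WT normoxia and 709 to 752 in WT OIR, and 3 of the 5 were called higher. Rpe65, the isomerase of the visual cycle, had a log2 fold change of 0.97 (SE 0.11, edgeR adjusted p = 3.98e-17). The 5 melanocyte and uveal genes (Tyr, Tyrp1, Dct, Pmel and Mlana) summed to 359 to 378 CPM and 579.6 to 654 CPM in the same groups, with 285 to 320.4 in WT normoxia and 328 to 466 in WT OIR, and 2 of the 5 were called. The summed rod markers in Casp1 KO OIR were 1.03 times their level in Casp1 KO normoxia. Of the 6, 2 were called higher and 1 lower, beside 584 higher and 454 lower of 22387 genes. The 5 corneal markers summed to at most 6.04 CPM in any library. In WT OIR the pigment epithelium list was 1.11 times its normoxic level. The melanocyte and uveal list was 1.37 times its own, with 2 of 5 called higher. There 0 of 8 gamma-crystallins were called by edgeR, and 1.58% of all genes were called higher. The 4 ciliary body genes (Optc, Zic1, Wfdc1 and Cldn2) were 2.57 times as high with OIR in WT, with 2 of 4 called, and 1.39 times in Casp1 KO, with 1 of 4 called. The part of pigment cells or other tissue in the crystallin result was not tested.

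Müller glia, the supporting cells of the retina, are among the retinal cells in which crystallins have been described. The summed level of their 4 markers was 0.669 times the normoxic level in WT OIR. There 3 of 4 were called lower, beside 524 of 22853 genes tested. In the Casp1 KO groups the sum was 1.29 times the normoxic level, with 3 of 4 called higher, beside 2.61% of all genes. All 8 genes of reactive Müller glia were fitted higher with OIR in each genotype. Of the 8, 6 were called higher in each, beside 1.58% of all genes in WT and 2.61% in Casp1 KO. The summed level of the 8 was 2.43 times the normoxic one in WT and 3.00 times in Casp1 KO. The same ratio for the gamma-crystallins was 1.10 in WT and 1.83 in Casp1 KO.

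**Figure D5:**
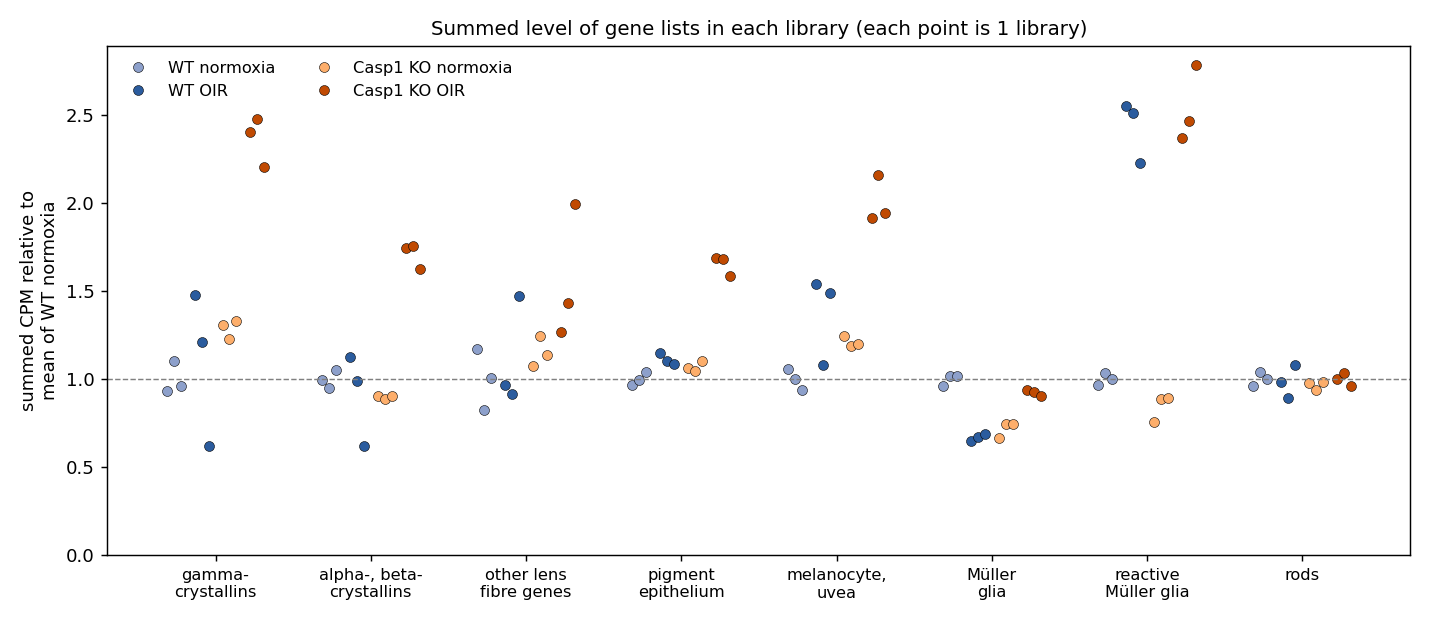
Summed level of 8 gene lists in every library, relative to the mean of WT normoxia (y axis, linear, starting at 0). Points are libraries, coloured by labelled group. The gamma-crystallins and the alpha- and beta-crystallins are highest in Casp1 KO OIR, the pigment epithelium and melanocyte lists are also highest there, and the rods stay near 1 in all groups.

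The genes most like the summed family over the 12 libraries were found by Pearson's r of log2(CPM + 1), among 15393 genes with at least 60 reads in all. The 10 highest were Cryba1 (0.92), Crybb1 (0.92), Layn (0.91), Ttr (0.90), Cryaa (0.89), Cryba2 (0.88), Crybb3 (0.88), Creg1 (0.88), Cryba4 (0.88) and Sostdc1 (0.87). Of the 10, 6 are alpha- or beta-crystallins, and Ttr, the thyroxine carrier transthyretin, is made by the pigment epithelium. Among the members, r ran from 0.90 to 0.97 between pairs of Cryga to Crygf, whereas pairs with Crygn ran from 0.38 to 0.72 and pairs with Crygs from 0.38 to 0.78. The closest pair was Cryge and Crygf, which are also identical at 93.0% of the aligned last 300 bases. All these values share the same 12 libraries, in which Casp1 KO OIR is the high group, and are a description.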

How the data were processed

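Retinal RNA was measured in 12 QuantSeq 3' libraries, 3 in each of 4 labelled groups. The authors aligned the reads to mm10 with STAR (2.7.5a) and counted them per gene with HTSeq (0.6.1), per the submitters' processing notes, and deposited a table of raw read counts per gene symbol. Which annotation and strand setting were used, and what was done with reads matching several genes, is not given in the sources used here.

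From these counts, CPM were computed on the TMM scale. Pairs of groups were fitted with the 6 libraries of that pair, and the interaction of OIR and genotype with all 12, with edgeR 4.0.16 (R 4.3.3) by glmQLFit and glmQLFTest, over genes with at least 1 count, with Benjamini-Hochberg adjustment over all genes and a threshold of 0.05. A called gene has an adjusted p under that threshold. The standard error is the fold change divided by the root of its F statistic, and the method was checked on simulated data. The members, the lists of alpha- and beta-crystallins, lens fibre genes, lens transcription factors and markers of other cells, and the tests were chosen with earlier results of these data known. The genes named are the members, the genes of these lists with the most reads or with a call, Casp1, and the 10 genes most like the summed members. Shared stretches came from GENCODE vM21 transcripts and start regions from RefSeq GRCm38.p6, where all 8 members were matched by symbol. Alternatives were DESeq2 1.42.0, other scalings, filters, the near copies summed, a replicate block, a prior count of 2, and each library left out in turn. Depth was 3391203 to 22815830 counts per library, so a count of 0 allows up to 0.885 CPM in the shallowest one.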

Additional observations from a re-analysis of the deposited data

Results flagged for a closer look

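For 11 of the genes named here, the effect of OIR in the libraries labelled Casp1 KO differed from that in the libraries labelled WT (interaction term, edgeR's quasi-likelihood test over all genes). Of the gamma-crystallins these were Crygb, with a difference of 0.84 on the log2 scale, Crygd with 0.71 and Crygs with 0.96, given without a p since the family was chosen with these values known. Crygd and Crygs were not called by DESeq2, after filterByExpr or without WT OIR replicate 3. Of the alpha- and beta-crystallins they were Cryaa with 0.84, Cryab with 0.97, Cryba1 with 1.28, Cryba2 with 1.34, Crybb1 with 1.40, Crybb2 with 1.10 and Crybb3 with 1.02, with edgeR adjusted p from 2.46e-09 for Cryba1 to 0.0155 for Crybb2, and DESeq2 called 6 genes of that list in place of 7. The lens transcription factor Prox1 differed by 0.72 (edgeR adjusted p = 0.00231). Over all genes tested, 0.604% were called higher in the interaction.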

How the results depend on the processing

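The direction of each called member was the same under every alternative run. Of the log2 fold changes of members, 309 recomputed values under settings other than a left-out library moved by less than the spread between replicates, and with a library left out 285 did and 3 moved further. Between Casp1 KO OIR and Casp1 KO normoxia the number of members called was 7 in every setting that kept the genes apart. In Casp1 KO OIR against WT OIR it was 3 with filterByExpr, and 3 when each library had to hold 10 counts, in place of 7. For the interaction it was 1 by DESeq2, 1 with filterByExpr and 1 at the minimum of 10, in place of 3. In Casp1 KO normoxia against WT normoxia it was 1 with all 12 libraries in 1 fit, in place of 3. With Cryga to Crygf summed there are 3 features by construction, and 2 were called between the Casp1 KO groups, 1 in normoxia and 2 in OIR. For these changes, apart from the summed features, the cause was not tested.

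With each library left out in turn, the members called ranged from 0 to 2 in WT OIR against normoxia, from 1 to 4 between the normoxic groups, from 6 to 7 between the OIR groups and from 1 to 6 for the interaction. The lens fibre genes called ranged from 1 to 3 between the Casp1 KO groups, from 0 to 1 between the normoxic groups, from 0 to 2 between the OIR groups and from 0 to 1 for the interaction. The lens fibre count between the Casp1 KO groups was 1, in place of 2, with DESeq2's size factors, library size alone, DESeq2, filterByExpr, at least 10 counts, the replicate block and all 12 libraries in 1 fit. Between the OIR groups it was 0, in place of 1, by DESeq2, with filterByExpr and at the minimum of 10, and for the interaction it was 1, in place of 0, by DESeq2.

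The labels give each group replicates 1 to 3. For samples with the same number, the correlations of their deviations from group means ran from -0.039 to 0.054 over 13791 genes. For samples with different numbers they ran from -0.058 to 0.075, so the same number did not set pairs apart. Whether samples with the same number share an origin cannot be told from these values. With the replicate block the members called were 0, 7, 3 and 7 in the 4 comparisons of 2 groups, as without it, and 4 in the interaction, in place of 3. At the depth of these libraries the level of Crygn (6 to 65 reads) limits what can be said of it.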
